A study of Mus musculus with 8 samples.

Results

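Transcripts of 10 mouse genes of cystine, glutathione and thioredoxin defence (Slc7a11, Gclc, Gclm, Nqo1, Txnrd1, Srxn1, Gsr, Gstm1, Gpx1 and Gpx3) were followed in the aorta of mice given colchicine or vehicle. They were taken by symbol from a table of 22063 genes, where each had 1 row, and all 10 passed the filter on low counts. The colchicine group holds 4 aorta libraries from male C57BL/6J mice that received colchicine by gavage (a daily 200 µg per kg), and the vehicle group holds 4 from mice that received saline the same way. Mice of both groups were 3 weeks old at the start, ate chow and took beta-aminopropionitrile (BAPN) in their water for 3 weeks, at a daily 1 g per kg. BAPN inhibits lysyl oxidase, so that new collagen and elastin fibres stay uncrosslinked and the aorta can dissect, while colchicine binds tubulin. Every animal had BAPN, so no level is set against a healthy aorta. The labels do not say whether a library is 1 animal or a pool, so the p-values measure the spread between libraries.

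Cells import cystine, reduce it to cysteine and build glutathione from it, and glutathione peroxidases and transferases then spend glutathione on peroxides and electrophiles. Thioredoxin reductase and sulfiredoxin keep a parallel system of thioredoxins and peroxiredoxins in its reduced, working state. Many of these genes are known targets of NRF2, a transcription factor that the KEAP1 protein holds down until oxidants or electrophiles release it and that binds antioxidant response elements. In the artery wall the system is carried by smooth muscle, endothelium, fibroblasts and any blood cells that have entered.

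The libraries held 15.4 to 18.5 M estimated counts. Smooth muscle markers were abundant in all of them, with a summed level of 22900 to 31340 scaled counts per 1e+06 (CPM) in colchicine and 6301 to 21350 CPM in vehicle libraries, and none of the 8 markers was at 0 in either group. Vehicle 1 and vehicle 4 stood apart, since haemoglobin genes made up 14.9% and 6.21% of their counts, against 0.0914 to 0.318% in colchicine libraries and 0.0419 to 0.282% in vehicle 2 and 3. Neutrophil markers (8 genes, of which 3 of 4 tested fell) summed to 3.17 to 5.17 CPM in colchicine libraries, and to 2837, 19.8, 13.2 and 726 CPM in vehicle 1 to 4. Macrophage markers (10 genes, of which 7 fell) summed to 557 to 1063 CPM in colchicine and 1779 to 4323 CPM in vehicle libraries. Adipocyte markers (6 genes, of which 1 of 5 tested fell) summed to 133 to 350 CPM in colchicine and 495 to 1186 CPM in vehicle libraries. In mean log2 CPM the groups overlapped for these markers, at 3.15 to 4.98 in colchicine and 2.97 to 6.64 in vehicle libraries. Of the 8 smooth muscle markers 3 rose and 0 fell, and of 8 endothelium markers 3 rose and 2 fell. These counts are of markers at an adjusted p under 0.05, beside 17.0% lowered and 17.4% raised among all tested genes. No marker of these lists was at 0 in all libraries of a group. In bulk tissue, fewer cells of a type and less RNA per cell cannot be told apart, and the part these cells have in the results that follow was not tested.

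Upstream sequences were found in RefSeq for 8 of the 10 genes (GRCm38.p6, the assembly that the build name mm10 denotes), and Gclc and Gsr are named only. The 3 printed are those with a motif match before the start site, and their genes had lower mean levels with colchicine. Each is the stretch of 250 bases just before a start site, 5′ to 3′ on the strand of the gene. Capitals mark the letters TGATGNAA, the core of the C/EBP-ATF response element bound by ATF4 in the amino acid response, or TGACNNNGC, the core of the antioxidant response element, on either strand (TTNCATCA and GCNNNGTCA on the other).
Slc7a11, chr3:50443614-50443863, minus strand: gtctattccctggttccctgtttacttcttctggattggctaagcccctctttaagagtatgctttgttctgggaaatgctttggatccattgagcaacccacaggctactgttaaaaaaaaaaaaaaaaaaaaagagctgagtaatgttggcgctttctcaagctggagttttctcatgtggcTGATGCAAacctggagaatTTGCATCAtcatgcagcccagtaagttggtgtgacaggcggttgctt
Gclm, chr3:122245307-122245556, plus strand: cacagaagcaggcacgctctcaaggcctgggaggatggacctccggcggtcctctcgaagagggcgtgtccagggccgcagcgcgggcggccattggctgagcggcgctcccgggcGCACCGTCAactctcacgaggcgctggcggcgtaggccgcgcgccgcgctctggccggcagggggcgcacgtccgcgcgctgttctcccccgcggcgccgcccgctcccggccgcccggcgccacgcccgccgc
Txnrd1 (the second of its 3 start sites), chr10:82858956-82859205, plus strand: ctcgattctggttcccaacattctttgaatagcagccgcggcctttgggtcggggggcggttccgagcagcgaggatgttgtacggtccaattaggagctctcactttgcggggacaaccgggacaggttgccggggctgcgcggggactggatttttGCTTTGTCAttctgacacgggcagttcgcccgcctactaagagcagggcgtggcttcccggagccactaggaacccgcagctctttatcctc

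Slc7a11 holds the TGATGNAA letters at 2 places, beginning 66 and 47 bases before the start site on opposite strands. Over the 32851 windows of 300 bases in the RefSeq table, 3.97% hold these letters at least once and 0.07% at 2 or more places. The TGACNNNGC letters occur in 12.4% of all windows. They begin 134 bases before the start in Gclm, 92 bases before it in Txnrd1, and 29 bases after it in Srxn1 as GCTAGGTCA. Nqo1, Gstm1, Gpx1 and Gpx3 hold neither motif within their windows. A match of letters is a description of the sequence and not a binding site. Only these letters were searched, so variant forms of either element are not covered, in Srxn1 or in the other genes.

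Colchicine aortas had less mRNA for the cystine importer Slc7a11, the reductases Txnrd1 and Gsr, the peroxiredoxin repair enzyme Srxn1 and the secreted peroxidase Gpx3, and more for the transferase Gstm1. By edgeR's quasi-likelihood test with Benjamini-Hochberg adjustment over all genes, 5 of the 10 genes fell and 1 rose at an adjusted p under 0.05. Among all 13431 genes tested, 34.4% differed, with 17.0% lowered and 17.4% raised. The remaining members, Gclc, Gclm, Nqo1 and Gpx1, did not pass. The median log2 fold change was -0.94 over the 10 genes and -0.03 over all tested genes. In 4 of the 10 (Slc7a11, Txnrd1, Gstm1 and Gpx3) the CPM ranges of the groups did not overlap, as in 39.1% of all tested genes. Without vehicle 1 and 4, 2 genes fell (Slc7a11 and Gpx3) and 2 rose (Gclc and Gstm1), where 20.3% of all genes fell and 20.2% rose (40.5% in all). On log2(TPM + 1) values with limma, 2 fell (Slc7a11 and Gsr) and 2 rose (Gclc and Gstm1), where 6.56% of all genes fell and 17.8% rose (24.4% in all). That scale moved the median of all genes by 0.37, to 0.35.

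**Figure D1:**
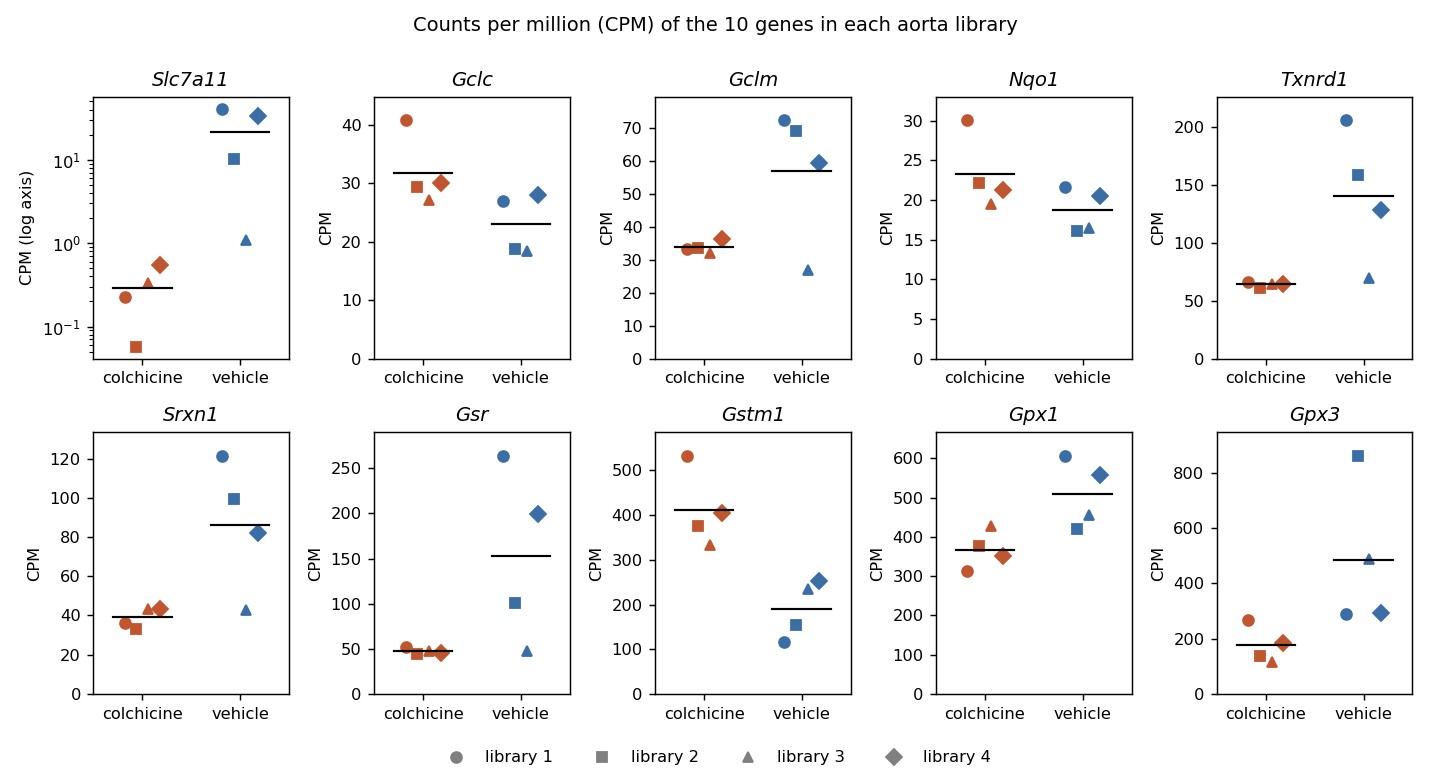
CPM of the 10 genes (vertical axes; the Slc7a11 axis is logarithmic) in the 4 colchicine and the 4 vehicle libraries; each point is a library, its shape gives the library number within its group, and the line is the group mean. The groups do not overlap in Slc7a11, Txnrd1, Gstm1 and Gpx3, and vehicle 3 lies within or next to the colchicine range in Gclm, Txnrd1, Srxn1 and Gsr.

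**Figure D2:**
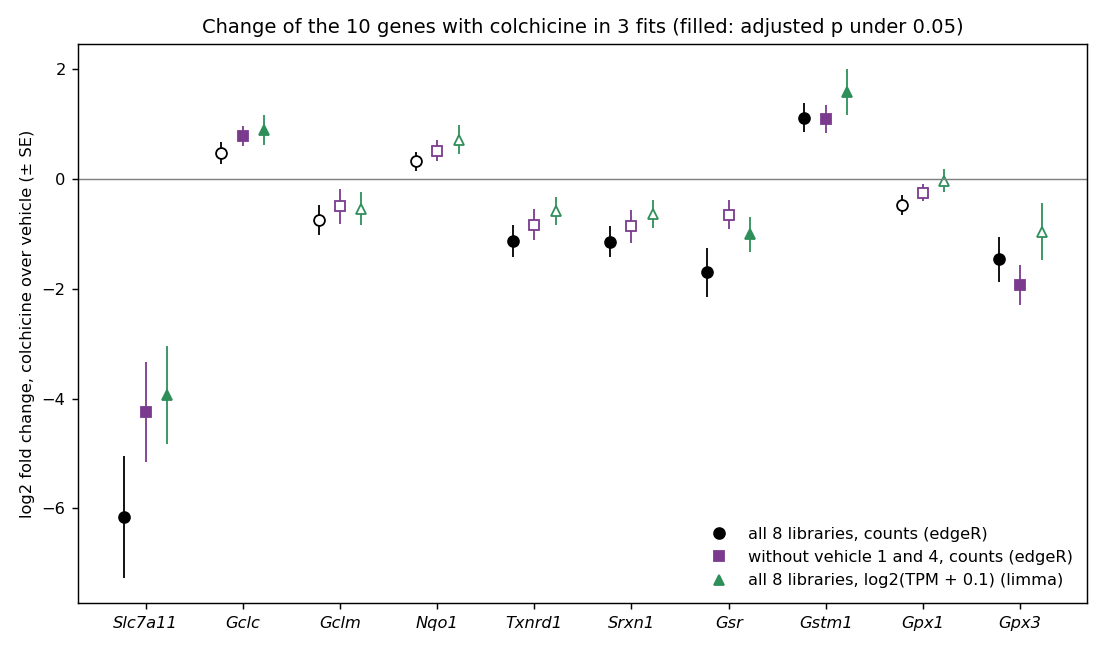
Log2 fold change of colchicine over vehicle (vertical axis, with standard error) of the 10 genes in the count fit over all 8 libraries, the same fit without vehicle 1 and 4, and limma on log2(TPM + 0.1); filled symbols passed an adjusted p of 0.05. Slc7a11 and Gstm1 are filled in all 3 fits, and Gsr is at -0.65 without vehicle 1 and 4, against -1.70 with all libraries.

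The mRNA of the cystine importer was close to the limit of detection in colchicine aortas. Slc7a11 (ENSMUSG00000027737, GRCm38 chromosome 3, 49892526 to 50443614), the subunit of the cystine-glutamate exchanger that carries the substrate, had 4, 1, 6 and 10 counts in colchicine 1 to 4, and 560, 188, 21 and 538 counts in vehicle 1 to 4. These are 0.227, 0.0574, 0.333 and 0.548 CPM in the colchicine and 41.1, 10.3, 1.11 and 33.1 CPM in the vehicle libraries. All 4 colchicine libraries lay below every vehicle library, and vehicle 3 was the vehicle library closest to them. The floor of 3 counts, which covers counting error only, corresponds to 0.165 to 0.172 CPM in the colchicine libraries, so the value of colchicine 2 lies under it. The change was -6.15 ± 1.11 on the log2 scale (SE, adjusted p = 0.00661). It was -4.25 without vehicle 1 and 4, where it passed, and -5.30 with limma-voom, where it did not (adjusted p = 0.112). The Slc7a11 levels were highest in vehicle 1 and 4, the libraries with the highest sums of neutrophil, erythroid, platelet, B cell and brown adipocyte markers. In mean log2 CPM, brown adipocyte markers were at 2.76 in vehicle 1 and 5.08 in vehicle 4, beside 2.89 to 3.91 in colchicine libraries. Vehicle 2 and 3, at 10.3 and 1.11 CPM of Slc7a11, had neutrophil marker sums of 19.8 and 13.2 CPM. Which cells held the transcript was not tested. The antisense gene Gm37854 lies within the Slc7a11 locus, and whether strand was used in counting is not given in the sources used here.

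Slc3a2, the heavy chain that brings the exchanger to the cell surface, was at 77.9, 74.9, 67.8 and 78.7 CPM in colchicine 1 to 4, and at 272, 181, 102 and 181 CPM in vehicle 1 to 4. Its groups did not overlap either, and it fell by 1.30 ± 0.26 (adjusted p = 0.00864). In colchicine libraries Slc3a2 averaged 74.8 ± 4.95 CPM and Slc7a11 0.291 ± 0.206 CPM (SD, n = 4).

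The subunits of glutamate-cysteine ligase, the rate-limiting enzyme of glutathione synthesis, pointed in opposite directions without passing the test. The catalytic subunit Gclc (chromosome 9, 77754535 to 77794485) had 40.8, 29.3, 27.1 and 30.1 CPM in colchicine 1 to 4, and 26.9, 18.8, 18.3 and 27.9 CPM in vehicle 1 to 4. Its groups overlapped in CPM only through vehicle 4 and colchicine 3, and in TPM they did not overlap. The change was 0.47 ± 0.20 (adjusted p = 0.0916), and it passed without vehicle 1 and 4 (0.78, adjusted p = 0.0168) and on log2(TPM + 1) (0.84, adjusted p = 0.0365, or 0.49 relative to the median of all genes). The modifier subunit Gclm (chromosome 3, 122245557 to 122270732) had 33.3, 33.5, 32.0 and 36.4 CPM in colchicine 1 to 4, and 72.2, 69.1, 26.7 and 59.4 CPM in vehicle 1 to 4. Vehicle 3 was the library that made the groups overlap, at the lowest level of all 8. Gclm changed by -0.75 ± 0.27 and missed the threshold (adjusted p = 0.059), but passed without vehicle 3 (-1.02, adjusted p = 0.00131) and with DESeq2 (-0.77, adjusted p = 0.028). The opposite-strand transcript Gm17494 overlaps Gclm, so reads of either could have been counted together.

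A ratio within a library does not depend on how the libraries are scaled. There were 1.22, 0.873, 0.847 and 0.828 Gclc counts per Gclm count in colchicine 1 to 4, and 0.372, 0.272, 0.685 and 0.47 in vehicle 1 to 4. The ratio averaged 0.943 ± 0.189 in colchicine and 0.45 ± 0.176 in vehicle libraries (SD, n = 4 each), and its groups did not overlap. This ratio was chosen after the values of both genes were seen, so it is given with no test.

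**Figure D3:**
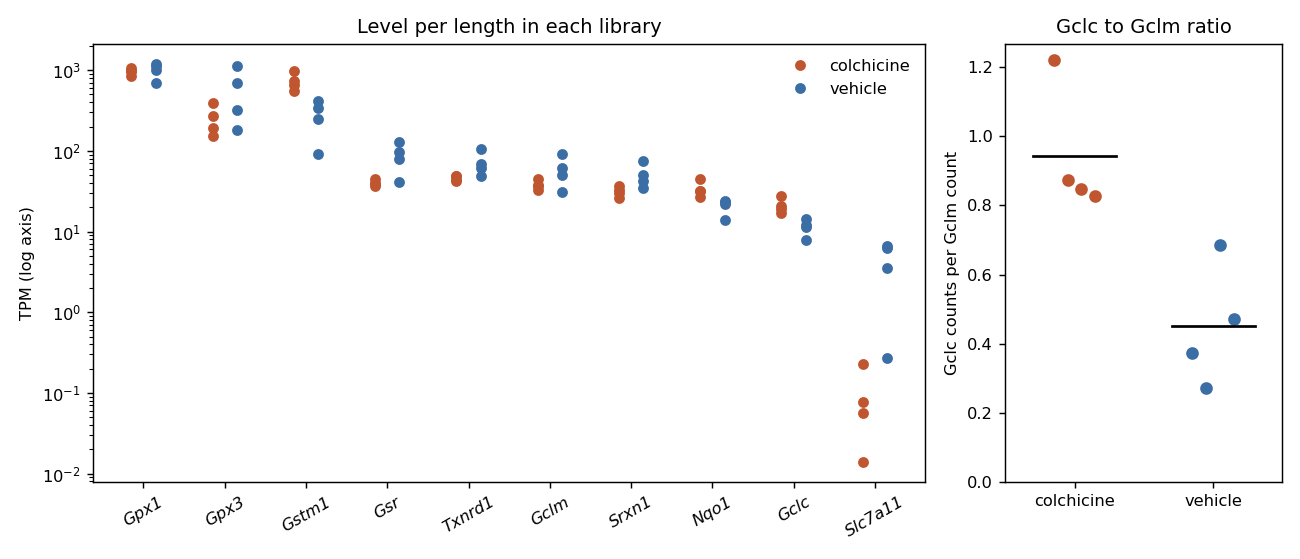
Left, TPM of the 10 genes (logarithmic vertical axis, a level per transcript length) in each colchicine and vehicle library, ordered by the vehicle mean; right, Gclc counts per Gclm count in each library, with the group mean as a line. Slc7a11 is the lowest gene in both groups, and the Gclc to Gclm ratio is 0.828 to 1.22 in colchicine and 0.272 to 0.685 in vehicle libraries.

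In the thioredoxin arm, Txnrd1 and Srxn1 fell by similar amounts. Txnrd1 (chromosome 10, 82833951 to 82897712), the cytosolic selenoenzyme that reduces thioredoxin, had 66.4, 60.8, 64.0 and 64.7 CPM in colchicine 1 to 4, and 205, 158, 69.1 and 128 CPM in vehicle 1 to 4. Colchicine libraries were tightly grouped, and vehicle 3 was just above them. In TPM vehicle 3 (48.1) lay inside the colchicine range (42.7 to 48.9). Txnrd1 changed by -1.13 ± 0.28 (adjusted p = 0.0174). The call was lost without colchicine 2 (adjusted p = 0.0511), without vehicle 1 and 4 (-0.83, adjusted p = 0.0508) or on log2(TPM + 1) (-0.57, adjusted p = 0.109, or -0.92 relative to the median). Eid3 lies within Txnrd1 on the same strand but had 9 counts over all libraries.

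Srxn1 (chromosome 2, 152105516 to 152111376), sulfiredoxin, restores peroxiredoxins that have been overoxidised. It had 36.3, 33.0, 43.3 and 43.5 CPM in colchicine 1 to 4, and 121, 99.2, 42.6 and 82.0 CPM in vehicle 1 to 4. Vehicle 3 lay inside the colchicine range and the other 3 vehicle libraries above it. The change of -1.14 ± 0.28 passed (adjusted p = 0.0169). It missed the threshold without colchicine 1 (adjusted p = 0.0509), without colchicine 2 (0.0529), without vehicle 1 and 4 (-0.86, 0.0577) and on log2(TPM + 1) (-0.62, 0.0941, or -0.97 relative to the median).

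Gsr (chromosome 8, 33652523 to 33698163), glutathione reductase, uses NADPH to turn oxidised glutathione back into its reduced form. It had 51.5, 44.1, 47.9 and 44.96 CPM in colchicine 1 to 4, and 264, 101, 48.0 and 199 CPM in vehicle 1 to 4. Vehicle 3 matched the colchicine libraries, and vehicle 1 and 4 were the highest. The change was -1.70 ± 0.45 (adjusted p = 0.0203). No single colchicine library could be left out without losing the call (adjusted p of 0.0503 to 0.06 at -1.76 to -1.70). Without vehicle 1 and 4 the change was -0.65 (adjusted p = 0.0814), less than the value with all libraries by more than 1.5 times.

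Among the enzymes that spend glutathione, Gpx3 fell and Gstm1 rose, and Gpx1 did not pass. Gpx3 (chromosome 11, 54902453 to 54910377), a secreted selenoperoxidase found in plasma, had 269, 137, 114 and 185 CPM in colchicine 1 to 4, and 291, 862, 488 and 293 CPM in vehicle 1 to 4. Here vehicle 2 and 3 were the highest, whereas Gsr was highest in vehicle 1 and 4. Gpx3 changed by -1.46 ± 0.41 (adjusted p = 0.0256) and by -1.93 without vehicle 1 and 4, where it passed. The call did not hold when colchicine 2, 3 or 4 was removed (adjusted p = 0.0703, 0.0669 and 0.0544) or on log2(TPM + 1) (-0.96, adjusted p = 0.187, or -1.31 relative to the median), where the groups overlapped. Fibroblast markers (8 genes, none of them called) summed to 17840 to 22670 CPM in colchicine libraries. In vehicle 1 to 4 they summed to 16260, 66240, 28230 and 6908 CPM, and macrophage markers to 3610, 4323, 1779 and 2062 CPM. Both sums were highest in vehicle 2, which had the most Gpx3, and the fibroblast sum was lowest in vehicle 4. In mean log2 CPM, however, macrophage markers were highest in vehicle 1 (7.76, against 7.31 in vehicle 2). Vehicle 1 had the least Gpx3 of the vehicle libraries. The part of either cell type in the Gpx3 level was not tested.

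Gpx1 (chromosome 9, 108338903 to 108340343), the cytosolic selenoperoxidase that is also plentiful in red blood cells, had 313, 377, 427 and 352 CPM in colchicine 1 to 4, and 607, 419, 456 and 557 CPM in vehicle 1 to 4. The groups overlapped, and the highest CPM were those of the haemoglobin-rich vehicle 1 and 4. In TPM, vehicle 1 was the lowest of all libraries (685) and vehicle 3 the highest (1194). The part of red blood cells in the Gpx1 level was not tested. The change was -0.47 ± 0.18 (adjusted p = 0.0661). It passed with DESeq2 (-0.49, adjusted p = 0.0196) and without vehicle 2 (-0.56, adjusted p = 0.0455), and on log2(TPM + 1) it was -0.03 (adjusted p = 0.922), or -0.38 relative to the median.

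Gstm1 (chromosome 3, 108012255 to 108017973), a mu-class glutathione transferase, had 533, 376, 333 and 405 CPM in colchicine 1 to 4, and 117, 153, 234 and 253 CPM in vehicle 1 to 4. Every colchicine library was above every vehicle library, both in CPM and in TPM. It rose by 1.12 ± 0.27 (adjusted p = 0.0152) and did not pass without colchicine 1 (0.94, adjusted p = 0.0605). Mu-class genes have near-identical copies, so the split of reads among them is uncertain. Gstm2 stood at 0.52 ± 0.19 (adjusted p = 0.0635), Gstm6 at 1.12 (0.114), Gstm7 at 0.86 (0.137), Gstm4 at -0.15 (0.728) and Gstm5 at -0.12 (0.493), so none of these 5 passed.

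Nqo1 (chromosome 8, 107388225 to 107403206), a quinone reductase often used as a readout of NRF2, had 30.04, 22.1, 19.6 and 21.3 CPM in colchicine 1 to 4, and 21.7, 16.1, 16.4 and 20.6 CPM in vehicle 1 to 4. The groups overlapped in CPM, with a change of 0.32 ± 0.18 (adjusted p = 0.189). In TPM, the scale that moved the median of all genes, Nqo1 was at 26.9 to 44.9 in colchicine and 13.8 to 23.9 in vehicle libraries, without overlap. Nqo1 passed in none of the 20 alternative fits, whose adjusted p ran from 0.0625 to 0.533. Gclc and Nqo1 thus had their highest CPM in colchicine 1, the library that was also highest in Gstm1 and, within its group, in Gpx3.

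In 7 of the 10 genes the SD of CPM was larger over vehicle than over colchicine libraries. The exceptions were Gclc, Nqo1 and Gstm1, whose mean CPM was higher in colchicine libraries. The SD of log2 CPM was larger over vehicle libraries in Gclc (0.324, against 0.257 over colchicine) and Gstm1 (0.524 against 0.286). For Nqo1 it was 0.218 over vehicle and 0.269 over colchicine libraries. The SD of Gsr was 3.36 CPM over colchicine and 97.0 CPM over vehicle libraries (n = 4 each), and that of Txnrd1 was 2.35 CPM over colchicine and 57.2 CPM over vehicle libraries. Vehicle 1 was above the whole colchicine range in 7 of the 10 genes, vehicle 2 in 6, vehicle 4 in 7 and vehicle 3 in 4. Below that range were 2, 3, 4 and 1 of the genes in vehicle 1 to 4. The 4 genes in which vehicle 3 was above were Slc7a11, Txnrd1, Gpx1 and Gpx3. Vehicle 3 had 0.0419% haemoglobin counts and a neutrophil marker sum of 13.2 CPM, the lowest of the vehicle libraries in both.

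**Figure D4:**
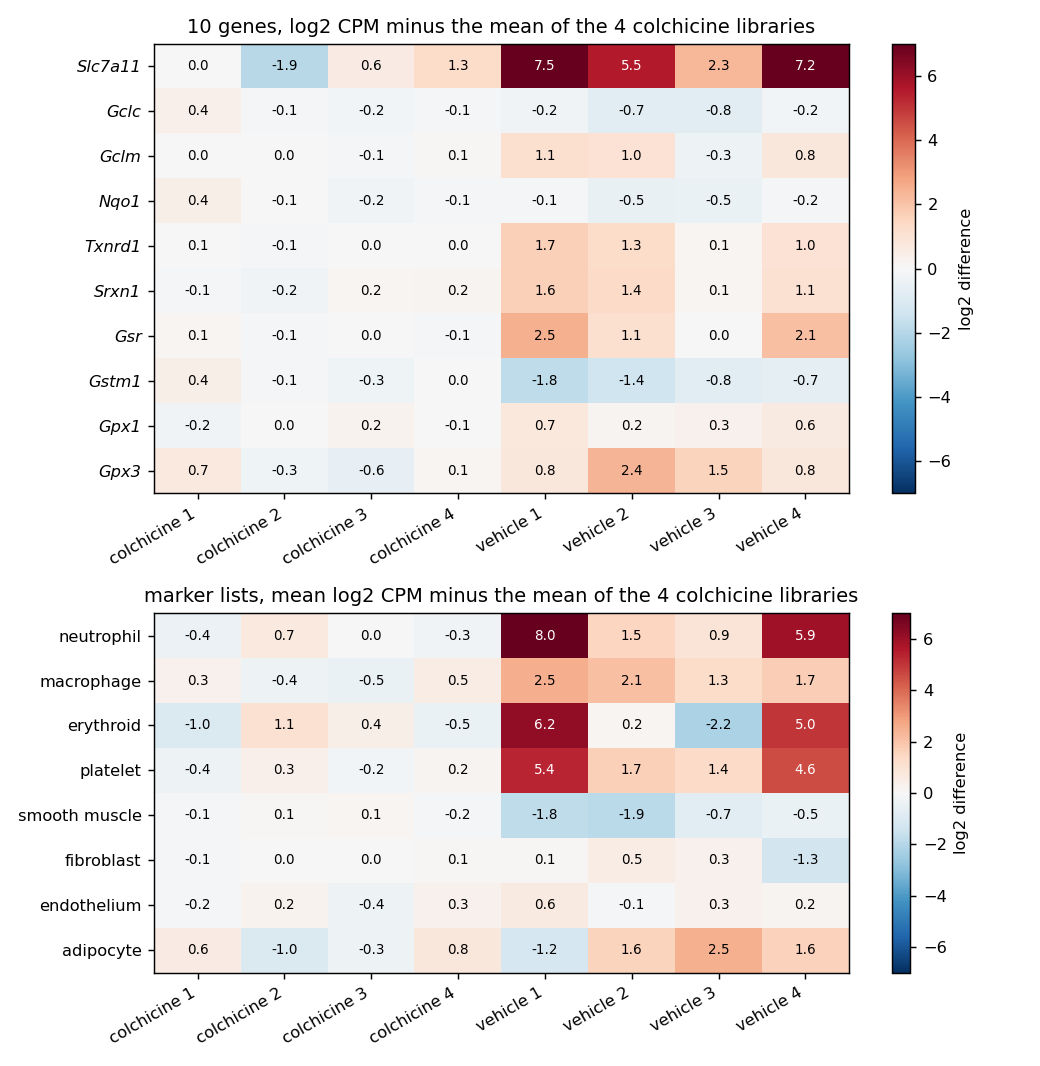
Log2 CPM of the 10 genes (top) and mean log2 CPM of 8 marker lists (bottom) in each library, as the difference from the mean of the 4 colchicine libraries; red is higher and blue is lower. Slc7a11 is 7.5, 5.5, 2.3 and 7.2 higher in vehicle 1 to 4, where neutrophil markers are 8.0, 1.5, 0.9 and 5.9 higher and macrophage markers 2.5, 2.1, 1.3 and 1.7 higher.

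Levels per transcript length, given in TPM, ranked the peroxidases and Gstm1 first. In colchicine libraries Gpx1 stood at 960.2 ± 92.0, Gstm1 at 727 ± 175 and Gpx3 at 252 ± 106 TPM (SD, n = 4). In vehicle libraries Gpx1 stood at 1000.2 ± 225, Gpx3 at 581 ± 426 and Gstm1 at 274 ± 139 TPM (SD, n = 4). The order of the means of Gstm1 and Gpx3 thus differed between the groups, but in vehicle libraries the means lay closer than the sum of their SDs, and in vehicle 4 Gstm1 (342 TPM) was above Gpx3 (320 TPM). The counts of Gstm1 per Gpx3 count were 1.98 to 2.93 in colchicine and 0.178 to 0.862 in vehicle libraries. The CPM ranges of both genes were already apart, in opposite directions. The gap in this ratio follows from that, and it is given with no test. Txnrd1, Gsr, Gclm, Nqo1 and Srxn1 lay between 31.3 and 45.8 TPM in colchicine libraries, and neighbours in that order were closer than the sum of their SDs. Gsr, Txnrd1, Gclm and Srxn1 lay between 50.3 and 86.6 TPM in vehicle libraries, again closer than the sum of their SDs, and Nqo1 followed at 20.6 ± 4.64 TPM. Gclc had 21.0 ± 4.66 TPM in colchicine and 11.4 ± 2.68 TPM in vehicle libraries. Slc7a11 was last in both groups, at 0.0938 ± 0.0926 TPM in colchicine and 4.18 ± 2.94 TPM in vehicle libraries, apart from Gclc by more than the sum of the SDs.

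Of 9 tested mRNAs of NRF2 and its regulators 1 rose and 0 fell, beside 17.4% raised and 17.0% lowered among all genes. Without vehicle 1 and 4, 2 rose and 1 fell, beside 20.2% and 20.3%. On log2(TPM + 1) 2 rose and 0 fell, beside 17.8% and 6.56%. The regulator that rose with all libraries was Cul3, the scaffold of the ligase that degrades NRF2, at 0.61 ± 0.20 (adjusted p = 0.0451). That call was lost when any 1 library other than vehicle 4 was left out (adjusted p of 0.0625 to 0.156). Without both vehicle 1 and 4 Cul3 stood at 0.93 (adjusted p = 0.011). Nfe2l2, which encodes NRF2, had 94.7 ± 14.1 CPM in colchicine and 79.6 ± 16.5 CPM in vehicle libraries (SD, n = 4 each; 0.25, adjusted p = 0.288). Keap1 had 55.2 ± 2.97 CPM in colchicine and 53.1 ± 8.01 CPM in vehicle libraries (0.06, adjusted p = 0.751), and the repressor Bach1 had 30.1 ± 5.11 CPM in colchicine and 33.8 ± 6.52 CPM in vehicle libraries (-0.17, adjusted p = 0.474). The sign of Keap1 turned without vehicle 1 and without vehicle 3, and that of Bach1 on the TPM scales, which move the median of all genes. Relative to that median Bach1 was at -0.13 on log2(TPM + 1), against -0.15 in the count fit. Transcript levels of these regulators say nothing of the amount of NRF2 protein.

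Of the other known NRF2 target genes 9 of 17 tested fell and 0 rose, where 17.0% of all genes fell and 17.4% rose. The other 8 did not pass, and the median of the list was -0.73. Hmox1, the enzyme that breaks down haem, fell to 34.2 ± 11.3 CPM in colchicine libraries, against 1386 ± 908 CPM in vehicle libraries (SD, n = 4 each; -5.34 ± 0.88, adjusted p = 0.00556). Its vehicle values were 2072, 1934, 82.6 and 1457 CPM in vehicle 1 to 4, so vehicle 3 was again the lowest. The ferritin light chain Ftl1 fell by 2.68 ± 0.43 (adjusted p = 0.00529), though ferritin reads can be shared with processed copies. Osgin1 fell by 3.21 ± 0.95 (adjusted p = 0.0302), but the call was lost without any 1 colchicine library (adjusted p of 0.0649 to 0.0814) and without vehicle 1 (-1.73, adjusted p = 0.0562). Osgin1 was at -0.53 without vehicle 1 and 4 (adjusted p = 0.256), and with limma-voom at -1.98 (adjusted p = 0.201). Without vehicle 1 and 4, 7 of the 17 fell and 2 rose (median -0.64), beside 20.3% and 20.2% of all genes. On log2(TPM + 1) 5 fell and 0 rose (median -0.33, where that of all genes is 0.35), beside 6.56% and 17.8%.

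Thioredoxins, peroxiredoxins and glutaredoxins fell in 9 of 20 cases and rose in 1, with a median of -0.54, beside 17.0% lowered and 17.4% raised among all genes. Of the 6 peroxiredoxins, which reduce peroxides with electrons from thioredoxin, Prdx1, Prdx2, Prdx3, Prdx5 and Prdx6 fell, and Prdx4, which resides in the endoplasmic reticulum, stood at 0.12 (adjusted p = 0.64). Prdx5 fell by 1.497 ± 0.343 to 87.1 ± 6.21 CPM in colchicine, against 246 ± 137 CPM in vehicle libraries (SD, n = 4 each; adjusted p = 0.0126). The glutaredoxin Glrx fell by 1.93 ± 0.56 (adjusted p = 0.0276), a call that did not survive removal of any 1 colchicine library (0.0598 to 0.0746), and Glrx was at -0.59 without vehicle 1 and 4 (adjusted p = 0.0478). The member that rose was the methionine sulfoxide reductase Msrb3, at 384, 382, 337 and 312 CPM in colchicine 1 to 4, and at 80.4, 103, 168 and 195 CPM in vehicle 1 to 4 (1.37 ± 0.28, adjusted p = 0.00861). Txnip, the inhibitor of thioredoxin, stood at 0.32 ± 0.22 (adjusted p = 0.267). Without vehicle 1 and 4, 6 fell and 4 rose, beside 20.3% and 20.2% of all genes. On log2(TPM + 1) 3 of 20 fell and 2 rose, beside 6.56% and 17.8%.

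Enzymes that supply NADPH, the electron source of Gsr and Txnrd1, fell in 4 of 13 cases and rose in 0, beside 17.0% lowered and 17.4% raised among all genes. The counts without vehicle 1 and 4 were 5 lowered and 1 raised, beside 20.3% and 20.2% of all genes. On log2(TPM + 1) 1 fell and 0 rose, beside 6.56% and 17.8%. Pgd, of the pentose phosphate pathway, fell to 57.1 ± 3.90 CPM in colchicine, against 210 ± 89.6 CPM in vehicle libraries (SD, n = 4 each; -1.88 ± 0.33, adjusted p = 0.0061). G6pdx, its first enzyme, changed by -0.78 ± 0.17 (adjusted p = 0.0119). G6pdx did not pass on log2(TPM + 1) (-0.33, adjusted p = 0.367, or -0.68 relative to the median of all genes). Aldh1l1, a folate enzyme, changed by -1.75 ± 0.49 (adjusted p = 0.0245), and this call was lost without colchicine 2 or 3 (0.0607 and 0.0649) and without vehicle 2 (0.0522). Pgd kept its call in all 20 alternative fits.

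Genes of cystine and cysteine supply fell in 2 of 10 tested cases, near the share of 17.0% among all genes. The falls were Slc3a2 and Slc7a5, a further partner of Slc3a2 that carries large neutral amino acids, at -1.17 ± 0.30 (adjusted p = 0.0184, or 0.052 without colchicine 2).

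Genes of glutathione synthesis and turnover fell in 3 of 10 cases and rose in 1, which is near the 34.4% called among all genes. Ggct, which acts on gamma-glutamyl peptides, fell by 2.10 ± 0.41 (adjusted p = 0.00812), and the dipeptidase Dpep2 by 1.95 ± 0.34 (adjusted p = 0.0064). Chac1, which degrades glutathione and is a target of ATF4, fell by 1.33 ± 0.42 (adjusted p = 0.0375). The Chac1 call was lost without colchicine 1, 2 or 4 or vehicle 2 or 4 (adjusted p of 0.0575 to 0.108). The last step of synthesis, Gss, stood at -0.34 ± 0.26 (adjusted p = 0.321).

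Of the other glutathione peroxidases 1 of 3 tested fell and 0 rose, beside 17.0% lowered and 17.4% raised among all genes. Gpx4, the selenoenzyme that reduces lipid peroxides in membranes, had 202 ± 10.9 CPM in colchicine and 345 ± 65.1 CPM in vehicle libraries (SD, n = 4 each; -0.77 ± 0.16, adjusted p = 0.0097). It did not pass on log2(TPM + 1) (-0.33, adjusted p = 0.211, or -0.68 relative to the median of all genes).

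Other glutathione transferases fell in 2 of 18 tested cases and rose in 2 (median 0.06), under the shares of 17.0% and 17.4% among all genes. Leaving out vehicle 1 and 4, 6 of 18 fell and 1 rose, beside 20.3% and 20.2% of all genes. On log2(TPM + 1) 1 of 21 fell and 0 rose, beside 6.56% and 17.8%. Gsto1 fell by 1.46 ± 0.24 (adjusted p = 0.00575) and the microsomal Mgst1 by 1.17 ± 0.17 (adjusted p = 0.00442, or 0.0524 on log2(TPM + 1)). Mgst3 and Gstt1 rose. Gstt1 was at 0.64 ± 0.21 (adjusted p = 0.0432), but did not pass without colchicine 1, 3 or 4 or vehicle 1, 2 or 4 (adjusted p of 0.0668 to 0.136).

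Genes of selenoprotein synthesis and selenium supply, on which Txnrd1, Gpx1 and Gpx3 depend, fell in 3 of 11 cases and rose in 2, beside 17.0% lowered and 17.4% raised among all genes. With vehicle 1 and 4 left out, 1 fell and 1 rose, beside 20.3% and 20.2% of all genes. On log2(TPM + 1) 0 of 10 fell and 1 rose, beside 6.56% and 17.8%. Selenop, the plasma carrier of selenium, had 871, 621, 527 and 711 CPM in colchicine 1 to 4, and 234, 417, 484 and 255 CPM in vehicle 1 to 4. Its groups did not overlap (0.97 ± 0.28, adjusted p = 0.0268), but the call was lost without colchicine 1, 2 or 4 or vehicle 1 or 4 (adjusted p of 0.0513 to 0.081), and without both of these it stood at 0.60 (adjusted p = 0.0628). Sephs2, which makes the selenium donor, fell by 1.04 ± 0.28 (adjusted p = 0.0218, and 0.0632 and 0.0576 without colchicine 2 or 3). Sephs2 was at -0.45 without vehicle 1 and 4 (adjusted p = 0.0555), and on log2(TPM + 1) at -0.52 (adjusted p = 0.105). Trnau1ap, which helps to decode selenocysteine, fell by 0.88 ± 0.24 (adjusted p = 0.0251), a call lost without any 1 colchicine library (0.0524 to 0.0662), and Trnau1ap was at -0.46 without vehicle 1 and 4 (adjusted p = 0.0237).

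**Figure D5:**
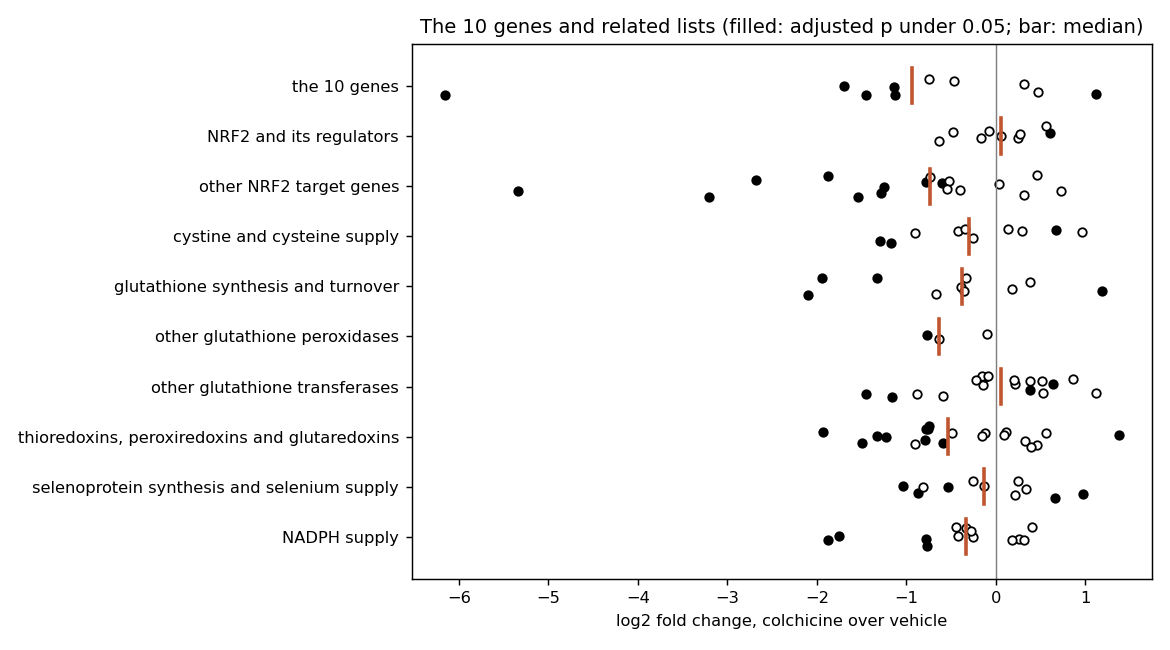
Log2 fold change of colchicine over vehicle (horizontal axis) for the 10 genes and for the tested members of 9 related lists; each point is a gene, filled where the adjusted p was under 0.05, and the bar is the median. The 10 genes have a median of -0.94 and the other NRF2 target genes one of -0.73, while the list of NRF2 regulators lies near 0.

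Over the 9 related lists together, 31 of 108 tested genes fell and 8 rose (each gene counted once, median -0.27), beside 17.0% and 17.4% of all genes. Without vehicle 1 and 4, 31 fell and 12 rose (median -0.19), beside 20.3% and 20.2%. On log2(TPM + 1), where the median of all genes is 0.35, 12 of 110 fell and 7 rose, beside 6.56% and 17.8%.

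The genes whose profile over the 8 libraries was most like that of Slc7a11 were Treml2, AA467197 and Ifitm1, at a root mean square difference of 0.63, 0.66 and 0.71 in mean-centred log2 CPM. The median over the 11877 genes compared was 2.94. Treml2, a receptor of leukocytes, had 0.336 ± 0.0418 CPM in colchicine and 21.2 ± 19.7 CPM in vehicle libraries (SD, n = 4 each). Closest to Gstm1 were Npat, a regulator of histone genes, Hspa2, a heat shock protein, and Ash1l, a histone methyltransferase, at 0.10, 0.11 and 0.11, against a median of 0.74. Closest to Gpx3 were the phosphatase Ptpro, the Toll-like receptor chaperone Unc93b1 and the RNA helicase Mov10, at 0.27, 0.30 and 0.30, against a median of 0.96. Since these genes were picked for their likeness over the same libraries, their direction follows from the choice.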

How the data were processed

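RNA of 8 mouse aorta libraries was sequenced with a SMARTer mRNA kit, per the labels' protocols. The authors deposited estimated counts per gene and library, 12.3% of those above 0 not whole, and TPM values, per the file headers. The genome build was mm10, per the submitters' processing notes, and the sources used here do not state the aligner, counter or use of strand. The 30 genes without a symbol held 5.89e-05% of counts and were left out.

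Counts were rounded and filtered with filterByExpr of edgeR 4.0.16 (R 4.3.3), which kept 13431 genes, and scaled with TMM factors (0.762 to 1.08). CPM are per 1e+06 of the scaled total. Groups were compared, without covariates, by the two-sided quasi-likelihood test of edgeR. Benjamini-Hochberg adjustment covered every gene tested, the threshold was 0.05, and SE is the absolute change over the square root of F. Totals of 15.4 to 18.5 M counts leave more counting error in the genes with few counts in colchicine libraries, such as Slc7a11, Treml2, AA467197, Ifitm1 and Chac1. Alternatives used DESeq2 1.42.0, limma 3.58.1 and other scalings, filters and sets of libraries. The code was tested on simulated data.

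Members and lists were chosen with earlier results of these data known. Named were all members, up to 3 genes past the threshold per list (largest change), Nfe2l2, Keap1, Bach1 and Txnip, and the 3 genes nearest in profile to Slc7a11, Gstm1 and Gpx3 (mean log2 CPM of at least 1, with a prior count of 2). Genes named outside this rule are further members of the same lists. The result of 1 gene that this rule names is not reported here. Where a symbol had 2 rows, the first was counted. Positions are those of GENCODE M21 on GRCm38. The replicate numbers were not used as pairs in the main fit, and the labels give no batch.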

Additional observations from a re-analysis of the deposited data

Results flagged for a closer look

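Of 92 groups checked (46 named genes in 4 colchicine and 4 vehicle libraries), 3 held a library far from the other 3 of its group, where chance alone flags about 1 group in 20. Ggct stood at 15.9 CPM in vehicle 1, against 5.11 to 6.04 CPM in the other vehicle libraries. Gpx4 stood at 442.0 CPM in vehicle 1, against 304 to 325 CPM in the others. Hspa2 stood at 83.4 CPM in colchicine 1, against 52.6 to 55.5 CPM in the others. None of the 10 members was flagged in either group.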

How the results depend on the processing

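Over 20 alternative fits the 10 members kept their direction in all 200 values, of which 164 kept their side of the threshold, 29 lost a call and 7 gained one. Leaving out each library in turn gave 0 to 1 members raised and 1 to 6 lowered, 2 to 11 related genes raised and 16 to 35 lowered, and 898 to 2420 of all genes raised and 1309 to 2644 lowered; the lowest counts came without colchicine 1 or 2. Without vehicle 1 and 4, 2 members were raised and 2 lowered. With haemoglobin and mitochondrially encoded genes left out of the totals, 5 related genes were raised. On log2(TPM + 1), 2 members were raised and 2 lowered, with 12 related genes and 863 of all genes lowered; on log2(TPM + 0.1) these were 2, 2, 12 and 867. Without a filter on TPM, 1 member was lowered, 4 related genes were raised and 10 lowered, and 784 of all genes were lowered. Keap1 ran from -0.10 to 0.17 when single libraries were left out, with a sign turned to -0.10 without vehicle 1 and -0.00044 without vehicle 3, and stood at -0.06 without vehicle 1 and 4, and Bach1 to 0.22, 0.25 and 0.22 on the 3 TPM scales. The cause of these shifts was not tested. The low counts of Slc7a11 in colchicine libraries limit the size of its fold change.

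With the replicate number as a block, 0 members were raised and 2 lowered (Slc7a11 and Txnrd1), 2 related genes were raised and 16 lowered, and 1121 of all genes were raised and 1184 lowered. Deviations of same-numbered libraries from their group means correlated at -0.112, -0.159, 0.0319 and -0.247 for numbers 1 to 4. No colchicine library correlated best with the vehicle library of its own number. With 4 libraries per group, these correlations cannot show whether same-numbered libraries shared a batch or were paired.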

Other observations

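Nnt, the mitochondrial enzyme that makes NADPH from NADH and whose gene is known to carry a deletion in C57BL/6J mice, has 2 rows in the table for overlapping gene models of chromosome 13. In the edgeR fit the row ENSMUSG00000025453 stood at -0.26 ± 0.36 (adjusted p = 0.596) and the row ENSMUSG00000116207 at 0.74 ± 0.21 (adjusted p = 0.0267), and how reads were divided between them cannot be told from the table. Both dipeptidases of the glutathione list were called, in opposite directions, with Dpep1 at 89.4 ± 25.6 CPM in colchicine and 39.3 ± 13.3 CPM in vehicle libraries (SD, n = 4 each; 1.19 ± 0.28, adjusted p = 0.0143) and Dpep2 at 2.90 ± 0.87 CPM in colchicine and 11.2 ± 4.36 CPM in vehicle libraries.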
